A study of Homo sapiens with 30 samples.

Results

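The imprinted genes are 32 autosomal genes known to be expressed mainly from the maternal or the paternal copy, taken from a fixed list and found by symbol among the 37458 autosomal protein-coding and lncRNA genes of the annotation (GENCODE on hg19). For each, every peak that touched the annotated gene span plus 10 kb on each side, here called the window of the gene, was taken from 5 peak lists. The study asked which RNAs lie near marked chromatin, and its ChIP-seq followed 2 repressive histone marks after knockdown of 3 lncRNAs. All samples were HEK293T cells, an established human embryonic kidney line carrying the SV40 large T antigen, crosslinked 48 h after transfection of antisense oligonucleotides (ASO). For H3K27me3 the groups were a negative control ASO (NC), 1 ASO against LINC00641 and 1 ASO against SETD5-AS1. For H3K9me3 they were NC and a mix of ASOs against LINC00662. Each of these 5 ChIP groups had 3 libraries and 3 matched input libraries, 30 samples in all. The replicates were merged before peak calling, so each group has 1 list, no value has a replicate error, and no difference between lists could be tested against the spread between replicates.

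An imprinted gene is marked in the egg or the sperm by DNA methylation of a differentially methylated region (DMR), a stretch rich in the dinucleotide CpG, and is then expressed from 1 parental copy. At many germline DMRs the methylated copy is also packed with H3K9me3, the mark of heterochromatin, while H3K27me3, laid down by Polycomb repressive complex PRC2, lies over some silent alleles and over developmental genes in general. KRAB zinc finger proteins such as ZFP57, which binds a methylated TGCCGC hexamer, hold methylation at these regions in the early embryo. The peak lists do not separate alleles, so they show where a mark lies at these genes and not on which parental copy.

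The following sequences are the 300 bases of hg19, plus strand, centred on the summits of 5 control peaks that lie at landmarks of imprinted clusters, and capitals mark each CpG. They are shown because the CpG is the base pair that carries the allele-specific methylation. The H3K9me3 summits are near annotated starts of the lncRNAs H19 and MEG3 and in PPP1R26P1, the processed pseudogene inside RB1 that holds the DMR of that gene.
H19, H3K9me3, chr11:2022258-2022557: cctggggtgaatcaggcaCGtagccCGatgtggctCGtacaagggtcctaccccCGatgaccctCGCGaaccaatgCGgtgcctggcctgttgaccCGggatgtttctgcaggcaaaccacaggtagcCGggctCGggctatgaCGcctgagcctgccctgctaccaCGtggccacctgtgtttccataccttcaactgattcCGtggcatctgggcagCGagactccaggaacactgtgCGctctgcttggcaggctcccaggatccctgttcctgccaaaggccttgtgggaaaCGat
MEG3, H3K9me3, chr14:101293686-101293985: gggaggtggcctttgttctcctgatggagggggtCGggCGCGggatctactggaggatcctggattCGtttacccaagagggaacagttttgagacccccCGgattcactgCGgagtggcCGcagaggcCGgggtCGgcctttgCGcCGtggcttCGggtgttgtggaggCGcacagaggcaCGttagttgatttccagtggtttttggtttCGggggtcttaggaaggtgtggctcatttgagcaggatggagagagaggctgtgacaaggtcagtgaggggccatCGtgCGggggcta
RB1 (PPP1R26P1), H3K9me3, chr13:48892695-48892994: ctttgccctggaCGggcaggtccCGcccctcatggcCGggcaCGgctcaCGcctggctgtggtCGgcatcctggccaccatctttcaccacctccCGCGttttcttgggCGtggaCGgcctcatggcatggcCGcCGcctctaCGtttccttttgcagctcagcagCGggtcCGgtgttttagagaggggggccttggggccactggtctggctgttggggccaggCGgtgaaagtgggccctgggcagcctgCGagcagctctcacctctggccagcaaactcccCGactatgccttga
PHLDA2, H3K27me3, chr11:2950981-2951280: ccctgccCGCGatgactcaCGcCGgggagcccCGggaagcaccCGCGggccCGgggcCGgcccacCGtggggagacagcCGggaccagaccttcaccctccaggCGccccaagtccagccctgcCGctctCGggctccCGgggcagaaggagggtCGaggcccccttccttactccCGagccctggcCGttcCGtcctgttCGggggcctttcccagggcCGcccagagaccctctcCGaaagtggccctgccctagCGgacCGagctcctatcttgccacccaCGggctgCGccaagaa
IGF2, H3K27me3, chr11:2158748-2159047: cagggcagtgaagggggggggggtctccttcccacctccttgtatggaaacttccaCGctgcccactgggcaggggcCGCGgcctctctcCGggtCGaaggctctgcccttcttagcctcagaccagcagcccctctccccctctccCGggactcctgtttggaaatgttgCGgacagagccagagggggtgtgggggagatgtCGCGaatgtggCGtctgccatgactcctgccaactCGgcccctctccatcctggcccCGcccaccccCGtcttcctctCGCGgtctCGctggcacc
The H19 stretch, in an intron of the longer annotated H19 transcripts, holds 16 CpG, and 94.6% of the autosomal summits in the H3K9me3 NC list held fewer in the same width. The MEG3 stretch, in an exon of MEG3, holds 17 CpG, and the RB1 stretch, in an exon of PPP1R26P1, holds 18. The PHLDA2 stretch, between genes, holds 26 CpG, more than 99.7% of the autosomal summits in the H3K27me3 NC list, and the IGF2 stretch, in an intron, holds 16. Over all autosomal summits the median was 4 CpG in the H3K9me3 NC list and 3 in the H3K27me3 NC list, against 5 and 7 at the peaks of imprinted genes. The hexamer TGCCGC, searched on both strands, was in 8 of 122 summit stretches of H3K9me3 NC peaks at imprinted genes (6.56%) and in 5.25% of all autosomal summit stretches of that list. In the LINC00662 ASO list it was in 10 of 104 (9.62%) and in 5.09%. For H3K27me3 it was in 3 of 48 in NC (6.25%, all summits 3.26%), 6 of 61 in the LINC00641 ASO list (9.84%, all 3.95%) and 6 of 52 in the SETD5-AS1 ASO list (11.5%, all 3.56%). The nearest peaks within 1 kb of any annotated start of genes that start at or next to a germline DMR were also searched. Such a start can lie away from the DMR. Of these peaks, 1 of 7 held the hexamer in the H3K9me3 NC list and 3 of 6 in the LINC00662 ASO list. The counts were 1 of 3, 1 of 3 and 1 of 4 in the H3K27me3 NC, LINC00641 ASO and SETD5-AS1 ASO lists. These matches describe the letters of the windows only. Of the 5 stretches shown, the 1 of PHLDA2 holds the hexamer.

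A larger share of imprinted genes than of genes in general had a peak, and for H3K9me3 most of them did. In the H3K9me3 NC list 23 of the 32 windows held at least 1 peak (71.9%, Wilson 95% interval 54.6 to 84.4%), where 43.6% of all autosomal gene windows did. In the H3K27me3 NC list 13 windows did (40.6%, 25.5 to 57.7%), against 17.6% of all. The counts were 12 in the LINC00641 ASO list (all genes 17.3%), 14 in the SETD5-AS1 ASO list (18.4%) and 21 in the LINC00662 ASO list (36.7%). These intervals cover counting error only, and windows that overlap share peaks. The windows of imprinted genes were longer, with a median of 83.0 kb against 34.9 kb, which raises the number of windows with a peak. Per base, H3K9me3 covered 2.49% of the 3.57 Mb of imprinted windows and 1.68% of all gene windows in NC, and 1.78% and 0.989% in the LINC00662 ASO list. H3K27me3 covered 1.43% and 1.86% in NC and 1.5% and 1.63% in the SETD5-AS1 ASO list. In the LINC00641 ASO list the order turned, with 1.77% of imprinted windows and 1.5% of all gene windows. A single gene, KCNK9, held 34850 of the 63212 covered bases at imprinted genes in that list, and 28236 of 51017 in NC. The higher share in the LINC00641 ASO list is thus not a trait of the imprinted genes as a group.

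**Figure D1:**
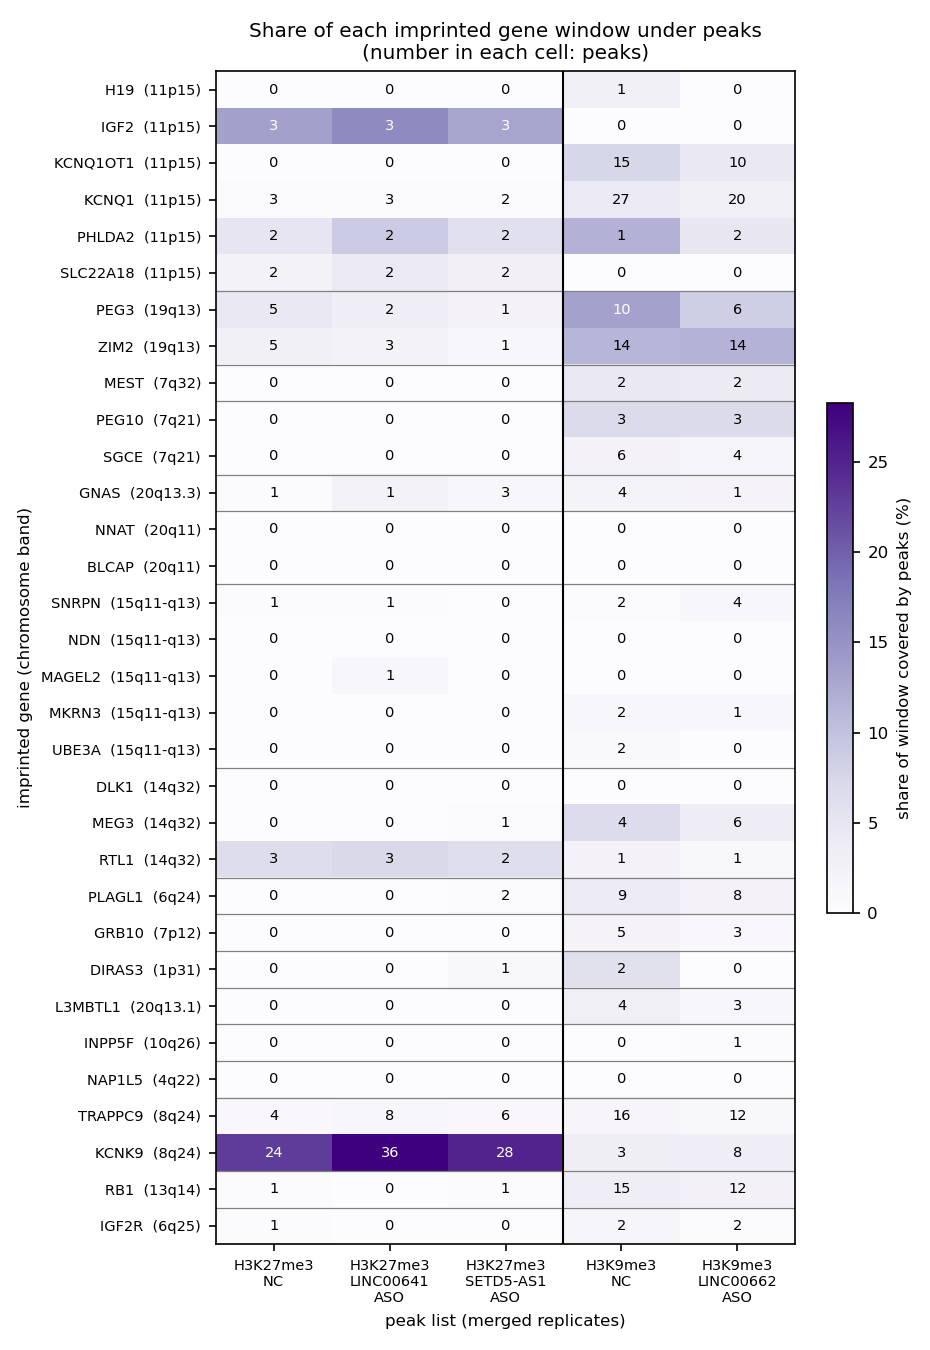
Share of each imprinted gene window covered by peaks (colour, in %) in the 5 peak lists, with the number of peaks written in each cell; rows are the 32 genes with their chromosome band. H3K27me3 is concentrated at KCNK9 (22.9% of its window in NC) and IGF2 (13.5%), and H3K9me3 at PEG3 (13.4%), PHLDA2 (11.7%) and ZIM2 (11.3%). The PHLDA2 value is from 1 peak in the flank, outside the gene.

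In the NC lists, the windows of 11 imprinted genes held peaks of both marks (all genes 11.5%), 12 held H3K9me3 peaks alone (all genes 32.1%), 2 held H3K27me3 peaks alone (6.12%) and 7 held neither (50.3%). The 2 with H3K27me3 alone were IGF2, a fetal growth factor, and SLC22A18, a transporter gene whose H3K27me3 peaks are those of its neighbour PHLDA2. NAP1L5, DLK1, NDN, NNAT and BLCAP had no peak of either mark in any of the 5 lists. The same bases lay under peaks of both marks at 5 genes, where 4.82% of all gene windows had such bases. They came to 1323 bp at KCNK9, 428 bp at KCNQ1, 176 bp at RB1 and 425 bp shared by PEG3 and ZIM2.

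Peaks lay at a start site, meaning within 1 kb of any annotated transcript start of the gene, at 7 imprinted genes in the H3K27me3 NC list (all genes 7.8%) and at 11 in the H3K9me3 NC list (all genes 8.31%). For H3K27me3 the 7 were IGF2, PHLDA2, PEG3, ZIM2, GNAS, RTL1 and KCNK9. The count was 8 in the LINC00641 ASO list (8.0%), which added MAGEL2, and 8 in the SETD5-AS1 ASO list (7.68%), which added PLAGL1. For H3K9me3 the 11 were H19, PEG3, ZIM2, MEST, PEG10, SGCE, GNAS, MKRN3, UBE3A, MEG3 and PLAGL1. In the LINC00662 ASO list 9 had one (6.77%): H19, UBE3A and MEG3 did not, and SNRPN did. Imprinted genes have more annotated starts, a median of 10 against 2 over all genes, which gives them more places for such a peak.

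The 11p15 cluster holds the paternally expressed growth factor gene IGF2 and the maternally expressed lncRNA H19, and next to them the KCNQ1 domain. At IGF2, H3K27me3 formed 3 peaks in each list, covering 13.5% of its 49.3 kb window in NC, 15.9% in the LINC00641 ASO list and 13% in the SETD5-AS1 ASO list. The peaks lie over the middle of the gene, where several of its promoters are. The peak of highest significance had a fold enrichment over input of 4.79 in NC, 7.21 in the LINC00641 ASO list and 5.89 in the SETD5-AS1 ASO list. These are not the same peak in each list. The LINC00641 ASO peak also covers another NC peak, of 5.4-fold enrichment, and its summit lies by the summit of that peak. IGF2 had no H3K9me3 peak. H19 had the reverse, with no H3K27me3 peak and 1 H3K9me3 peak in NC, of 767 bp, 88 bp from an annotated start and enriched 2.17-fold, and none in the LINC00662 ASO list. That H19 peak rested on 31 fragments at its summit (exact Poisson 95% interval 21.1 to 44), where the local input was 3.2 times the lowest of the list.

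In the KCNQ1 domain, the paternally expressed antisense lncRNA KCNQ1OT1 starts inside the potassium channel gene KCNQ1. KCNQ1OT1 held 15 H3K9me3 peaks in NC and 10 in the LINC00662 ASO list, covering 7.41% and 4.42% of its window. KCNQ1, which contains it, held 27 and 20. None of these lay within 1 kb of a KCNQ1OT1 start: the nearest was 11387 bp away in NC and 6350 bp away in the LINC00662 ASO list. H3K27me3 was sparse there, with 3, 3 and 2 peaks at KCNQ1 in the NC, LINC00641 ASO and SETD5-AS1 ASO lists, and none at KCNQ1OT1.

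PHLDA2, a maternally expressed gene that limits placental growth, lies at the end of the domain. It had 2 H3K27me3 peaks at its start in each list, covering 4.88%, 8.82% and 5.93% of its window in the NC, LINC00641 ASO and SETD5-AS1 ASO lists. The H3K9me3 near PHLDA2 was 8807 bp from the nearest start at its summit, a single peak of 3286 bp in NC that reached 4.1-fold enrichment. In the LINC00662 ASO list there were 2 shorter peaks, and the covered share of the window was 4.69% against 11.7% in NC.

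**Figure D2:**
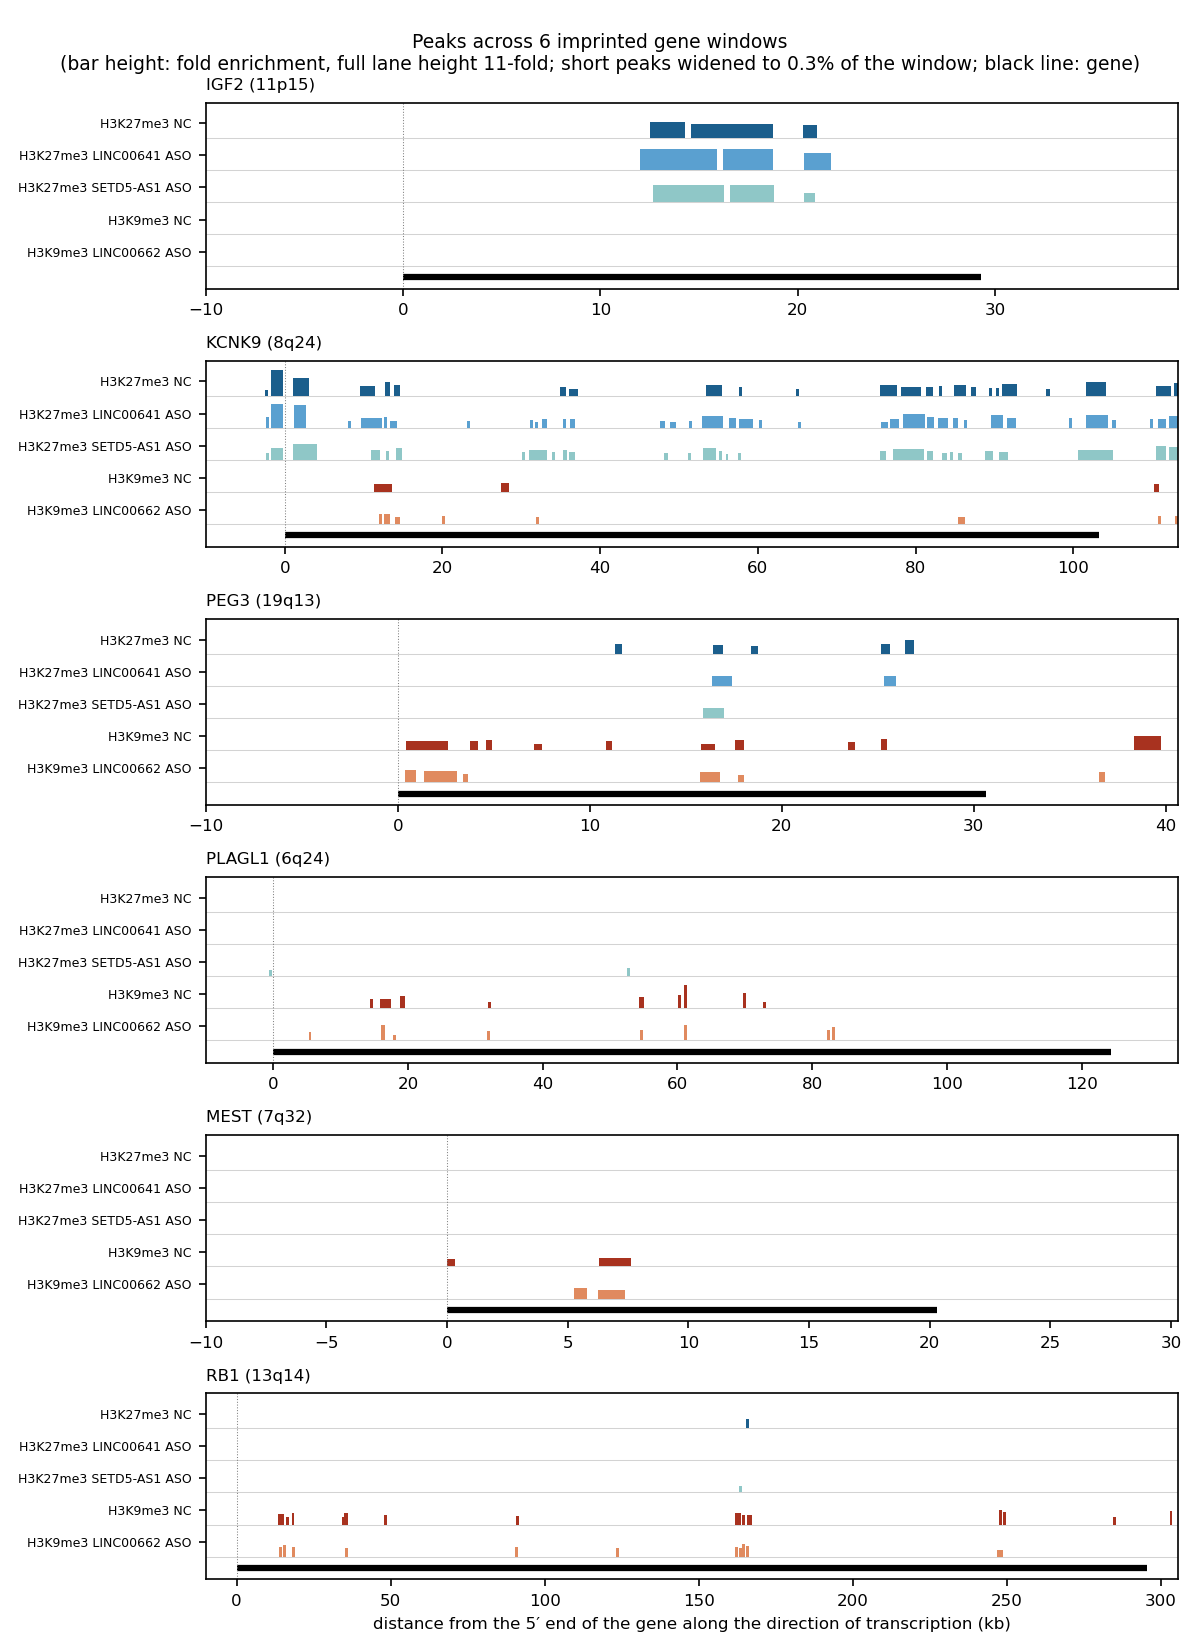
Peaks of the 5 lists across the windows of IGF2, KCNK9, PEG3, PLAGL1, MEST and RB1, by distance from the 5′ end of the gene in kb along the direction of transcription; bar height is fold enrichment over input, the black line is the gene and the shortest peaks are drawn wider than they are. IGF2 has H3K27me3 peaks and no H3K9me3 peak, MEST has H3K9me3 peaks alone, PLAGL1 has 9 short H3K9me3 peaks in NC (3.76% of its window), and the H3K27me3 peaks of KCNK9 are spread along its length.

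KCNK9, a potassium channel gene of 8q24 expressed from the maternal copy in brain, held the most H3K27me3 of all the imprinted genes in each list. It had 24 peaks in NC, 36 in the LINC00641 ASO list and 28 in the SETD5-AS1 ASO list, covering 22.9%, 28.3% and 25% of its window. Thus 24 of the 48 H3K27me3 NC peaks at imprinted genes were at this single gene. The peak just upstream of it reached 9.01-fold enrichment with 70 fragments in NC, 8.29-fold with 103 in the LINC00641 ASO list and 4.02-fold with 67 in the SETD5-AS1 ASO list. Divided by the number expected at a genomic position in each list, these fragments were 18.2, 27.2 and 15.1 in that order. The local input relative to the lowest of its list was 1.79 in NC and 3.59 in the SETD5-AS1 ASO list. Against NC, both measures were lower in the SETD5-AS1 ASO list, the fold enrichment by more. In the LINC00641 ASO list the fold enrichment was lower and the fragment number higher.

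TRAPPC9, the neighbour of KCNK9 and a gene for a trafficking complex subunit, held an H3K27me3 peak of about 4 kb in an intron. Its fold enrichment was 5.33 in NC, 10.4 in the LINC00641 ASO list and 4.4 in the SETD5-AS1 ASO list. The fragments at its summit were 70, 103 and 64 in that order, and the local input over the lowest of the list was 3.2, 2.37 and 3.11. The paternally expressed lncRNA PEG13, which starts inside TRAPPC9, had an H3K27me3 peak at its start in every H3K27me3 list, of 2.21-fold, 3.82-fold and 3.44-fold enrichment, and no H3K9me3 peak in its window. H3K9me3 was spread over TRAPPC9, with 16 peaks in NC and 12 in the LINC00662 ASO list covering 1.33% and 1.1% of a window of 749 kb.

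PEG3, a paternally expressed zinc finger gene of 19q13, had the largest share of its window under H3K9me3 of the imprinted genes in NC, 13.4%, in 10 peaks. In the LINC00662 ASO list it had 6 peaks and 8.42%. ZIM2, which shares the first exons of PEG3, had 14 peaks in both lists and 11.3% and 11.5% of its window covered. PEG3 has several annotated starts, and its 5′ end is at 57352096. An NC peak of 2.3-fold overlapped the start at 57336016, inside the gene, and its pair in the LINC00662 ASO list reached 3.64-fold. The strongest in the LINC00662 ASO list, of 1705 bp, overlapped another start, at 57349186, and reached 3.89-fold. The PEG3 window held H3K27me3 too, with 5 peaks in NC, 2 in the LINC00641 ASO list and 1 in the SETD5-AS1 ASO list. They covered 4.34%, 3.34% and 2.11%. The best of these were 4.95-fold, 3.35-fold and 3.31-fold, from 23, 15 and 18 fragments, and were different peaks in the 3 lists. The peak near the PEG3 start at 57336016, paired in both comparisons, had 2.98-fold in NC. It had 3.35-fold in the LINC00641 ASO list and 3.31-fold in the SETD5-AS1 ASO list. Another pair had 3.5-fold in NC and 3.35-fold in the LINC00641 ASO list.

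The imprinted genes of chromosome 7 had H3K9me3 peaks, at start sites for some, and no H3K27me3 peak in any of the 3 lists. MEST, a gene for an alpha/beta hydrolase-fold protein, had 2 H3K9me3 peaks at start sites in each list, covering 4.28% of its window in NC and 4.07% in the LINC00662 ASO list. The peak over its main start reached 2.8-fold with 31 fragments in NC and 3.0-fold with 25 fragments in the LINC00662 ASO list. PEG10, derived from a retrotransposon, had 3 peaks in each list, 2 of them at start sites, covering 6.93% and 6.79%. SGCE, a sarcoglycan gene that starts head to head with PEG10, shared these peaks and had 6 in NC and 4 in the LINC00662 ASO list, 1 of them at an SGCE start in each. GRB10 at 7p12, a gene for an adaptor of insulin signalling, had 5 and 3 peaks, none at a start site and the nearest 3113 bp and 3162 bp from a start.

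PLAGL1, a paternally expressed zinc finger gene of 6q24 that restrains growth, held the H3K9me3 peak of highest significance among the imprinted genes. In NC it was 486 bp long in an intron and reached 8.12-fold enrichment with a −log10 q of 23.5. In the LINC00662 ASO list its pair reached 5.24-fold, with 29 fragments against 42. PLAGL1 had 9 peaks in NC and 8 in the LINC00662 ASO list, covering 3.76% and 2.17% of its window, and a further peak lay 694 bp and 867 bp from a start. Its H3K27me3 was limited to the SETD5-AS1 ASO list, where 2 peaks, the stronger with 18 fragments, covered 0.529% of the window.

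RB1, the retinoblastoma tumour suppressor, is expressed more from the maternal copy owing to the DMR in PPP1R26P1. It had 15 H3K9me3 peaks in NC and 12 in the LINC00662 ASO list. The NC peaks in PPP1R26P1 reached 3.47-fold with 37 fragments and 2.44-fold with 28, and the LINC00662 ASO peaks there reached 3.82-fold with 29 and 3.19-fold with 26. The mark was thus at this DMR in both lists. The strongest NC peak of RB1 by −log10 q, 11.8, lay elsewhere in an intron and went from 5.09-fold to 2.32-fold in its pair.

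At 14q32, MEG3, a maternally expressed lncRNA, had 4 H3K9me3 peaks in NC and 6 in the LINC00662 ASO list, covering 6.53% and 3.57% of its window. A peak at a MEG3 start, 88 bp away and enriched 2.83-fold, was in NC and in no other list. RTL1, a paternally expressed gene of retrotransposon origin, had 3, 3 and 2 H3K27me3 peaks in the NC, LINC00641 ASO and SETD5-AS1 ASO lists, covering 6.44%, 7.15% and 6.4%. The strongest in each list reached 4.03-fold, 5.87-fold and 3.09-fold. These are not the same peak in each list. The SETD5-AS1 ASO one paired with a weaker NC peak of 2.61-fold. RTL1 had 1 H3K9me3 peak in each list. DLK1, the growth regulator of the same cluster, had none.

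GNAS at 20q13.3 encodes the stimulatory G protein alpha subunit and has several promoters with opposite imprints. It had 4 H3K9me3 peaks in NC, 2 of them at start sites, and 1 of 1755 bp at a start site in the LINC00662 ASO list, covering 2.07% and 1.92%. H3K27me3 was at its most upstream starts, by its antisense transcript GNAS-AS1, with 1, 1 and 3 peaks in the NC, LINC00641 ASO and SETD5-AS1 ASO lists. It covered 281 bp, 2099 bp and 1096 bp there. In the LINC00641 ASO list the single peak had 30 fragments against 15 in NC. Its fold enrichment was 3.57 against 2.81, and its local input over the lowest of the list 2.03 against 1.22.

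In the Prader-Willi and Angelman region, 15q11-q13, the listed imprinted genes carried little of either mark. Over the windows of SNRPN, NDN, MAGEL2, MKRN3 and UBE3A, H3K27me3 covered 0.0985% in NC, 0.134% in the LINC00641 ASO list and 0.0% in the SETD5-AS1 ASO list. H3K9me3 covered 0.6% in NC and 0.706% in the LINC00662 ASO list. For SNRPN, a splicing factor gene that starts at the imprinting centre, the nearest H3K9me3 peak in NC was 14250 bp from the annotated start at 25068872. In the LINC00662 ASO list it was 910 bp from another start, at 25200152, with 15 fragments. The distances are from different starts, so they do not give a change at a single start. UBE3A, a ubiquitin ligase gene, had 2 H3K9me3 peaks at start sites in NC, of up to 4.72-fold enrichment, and none in the LINC00662 ASO list. MKRN3, whose product delays puberty, had 2 and 1. The neighbouring lncRNA SNHG14, the long host transcript of the region, carried more H3K9me3, with 20 peaks in NC, 10 of them at start sites, and 22 in the LINC00662 ASO list, 12 of them at start sites. They covered 2.77% and 3.33% of its 462 kb window, against 1.68% and 0.989% of all gene windows, and it had no H3K27me3 peak. How many annotated starts SNHG14 has is not given here. Its best NC peak has the same fold enrichment, 4.72, and the same significance as the best UBE3A peak, so the 2 genes may share it.

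Of the remaining genes, L3MBTL1, a chromatin reader gene of 20q13.1, had 4 H3K9me3 peaks in NC and 3 in the LINC00662 ASO list. IGF2R, the receptor that clears IGF2, had 2 in each list, 1 of them in the antisense lncRNA AIRN, 970 bp from an AIRN start in NC and 2379 bp in the LINC00662 ASO list. DIRAS3, a small GTPase gene with tumour suppressor activity, had 2 in NC, covering 5.81% of its window, and none in the LINC00662 ASO list. INPP5F, an inositol phosphatase gene, had none and 1.

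Taking the 17 genes that start at or next to a germline DMR, H3K9me3 was the nearer mark at most in NC. The share of all genes with H3K9me3 nearer was not computed. H3K9me3 was the more widespread mark in general, with a peak in 43.6% of all gene windows in NC, against 17.6% for H3K27me3. A start here is any annotated start of the gene, and it can lie away from the DMR. In NC, the GNAS start nearest a peak was at 57416709 for H3K27me3 and at 57428321 for H3K9me3. An H3K9me3 peak lay within 1 kb of a start at 7 of the genes in NC (all genes 8.31%). It did so at 7 in the LINC00662 ASO list (all genes 6.77%). In NC these were PEG3, MEST, PEG10, GNAS, GNAS-AS1, PLAGL1 and AIRN, and in the LINC00662 ASO list SNRPN stood in place of AIRN. For H3K27me3 the counts were 4 in NC (7.8%), 4 in the LINC00641 ASO list (8.0%) and 5 in the SETD5-AS1 ASO list (7.68%), namely PEG3, GNAS, GNAS-AS1 and PEG13, with PLAGL1 in the last. GNAS and GNAS-AS1 can share a peak. The H3K9me3 peaks within 1 kb of these starts were modest in NC, from 2.03-fold at GNAS to 4.03-fold at PLAGL1.

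**Figure D3:**
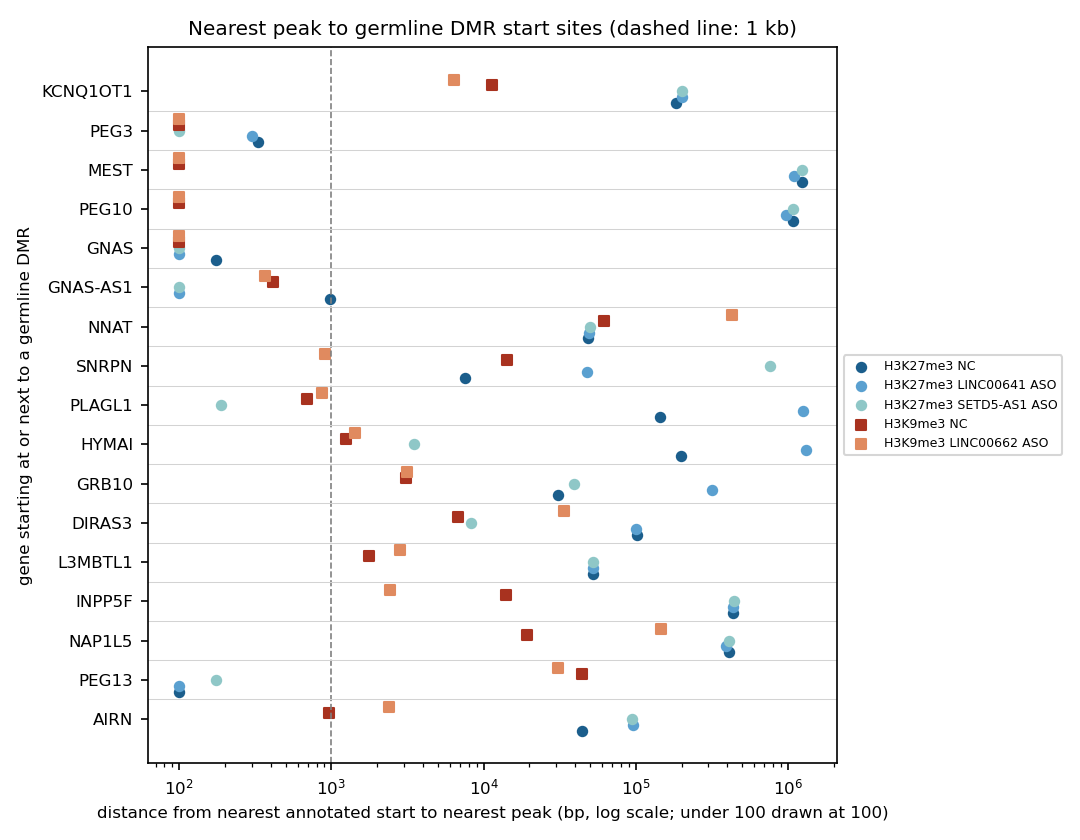
Distance in bp (log axis, values under 100 drawn at 100) from the nearest annotated start of 17 genes at germline DMRs to the nearest peak of each list; circles are the H3K27me3 lists, squares the H3K9me3 lists, and the dashed line is 1 kb. In NC, 7 genes have an H3K9me3 peak and 4 an H3K27me3 peak left of the line. The nearest start can lie away from the DMR.

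The other genes listed for these clusters, 42 in all, had a peak in 15, 13 and 14 windows in the H3K27me3 NC, LINC00641 ASO and SETD5-AS1 ASO lists, and in 27 and 25 windows in the H3K9me3 NC and LINC00662 ASO lists. The shares over all gene windows were 17.6%, 17.3%, 18.4%, 43.6% and 36.7% in that order. Some of these neighbour windows are long, such as 742 kb at PWRN1, which raises the number with a peak. Some share peaks with the windows of imprinted genes, such as GNAS-AS1 with GNAS, so the counts are not independent of those above. H3K27me3 was dense at SLC22A3, an organic cation transporter gene beside IGF2R, with 31, 18 and 26 peaks covering 17.4%, 9.47% and 14% of its window. DIO3, the thyroid hormone deiodinase gene of 14q32, had 18.1%, 13.9% and 19.7% covered. USP29, a deubiquitinase gene beside PEG3, carried both marks, with 36.9% of its window under H3K9me3 and 27.3% under H3K27me3 in NC.

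Knockdown of LINC00641 was followed by more H3K27me3 peaks at imprinted genes where the list as a whole held fewer. There were 48 peaks in NC and 61 in the LINC00641 ASO list, a ratio of 1.27, against a ratio of 0.798 over the autosomes. Of the NC peaks at imprinted genes 77.1% overlapped a peak of the LINC00641 ASO list (Wilson 95% interval 63.5 to 86.7%), against 51.6% over the autosomes. Of the LINC00641 ASO peaks 36.1% were new, against 34.3%. Most of the gain in number was KCNK9: without its window the ratio was 1.04 and the retained share 62.5%, a choice made after seeing the data. In 23 peaks that paired 1 to 1, the median log2 ratio of fold enrichment was 0.17, against 0.005 over the autosomes, and it was 0.28 without KCNK9. Of these pairs 5 were at least 1.5-fold higher (autosomes 7.02%) and 0 at least 1.5-fold lower (6.33%). The log2 ratios of the higher ones were 0.64 and 0.81 at KCNK9, 0.97 and 0.79 at TRAPPC9, and 0.87 at KCNQ1. KCNK9 and TRAPPC9 are neighbours at 8q24. Without the window of TRAPPC9, the longest, the median log2 ratio was 0.098. When weaker peaks (−log10 q under 5) were dropped from both lists, the median turned to -0.10. Relative to NC, IGF2R and RB1 had no H3K27me3 peak left (2 of 13 windows, all genes 18.7%), and MAGEL2, a ubiquitin ligase regulator of 15q11-q13, had 1 that NC lacked (1 of 19, all genes 3.61%). That MAGEL2 peak was 258 bp from a start, enriched 3.03-fold, with 15 fragments.

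After knockdown of SETD5-AS1 the H3K27me3 list differed little in number at imprinted genes, with 52 peaks against 48, a ratio of 1.08 against 0.935 over the autosomes. The retained share was 68.8% (54.7 to 80.1%) against 55.0%, and it was 54.2% without KCNK9. The new share was 36.5% against 39.5%. In 22 pairs the median log2 ratio was -0.04, against -0.076 over the autosomes. Of these, 4 were at least 1.5-fold lower (autosomes 8.79%) and 1 at least 1.5-fold higher (4.21%). The upstream KCNK9 peak and a PHLDA2 peak were among the lower ones. The PHLDA2 peak went from 3.93-fold to 2.02-fold with 32 and 34 fragments, and its local input over the lowest of the list was 1.92 and 3.69. Divided by the number expected at a genomic position in each list, its fragments were 8.31 and 7.67. IGF2R and SNRPN had no peak left (2 of 13, all genes 17.0%), and PLAGL1, DIRAS3 and MEG3 had at least 1 that NC lacked (3 of 19, all genes 4.6%).

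Knockdown of LINC00662 was followed by fewer H3K9me3 peaks at imprinted genes and over the autosomes. There were 122 peaks in NC and 104 in the LINC00662 ASO list, a ratio of 0.852 against 0.723. The covered bases were 88915 and 63618. The retained share was 45.1% (36.5 to 53.9%) against 38.0% over the autosomes, and the new share 41.3% against 44.7%. In 47 pairs the median log2 ratio was 0.10 against 0.026, with 5 pairs at least 1.5-fold lower (8.83%) and 7 at least 1.5-fold higher (10.4%). H19, UBE3A and DIRAS3 had no H3K9me3 peak left (3 of 23, all genes 25.8%) and INPP5F had 1 that NC lacked (1 of 9, all genes 7.8%).

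**Figure D4:**
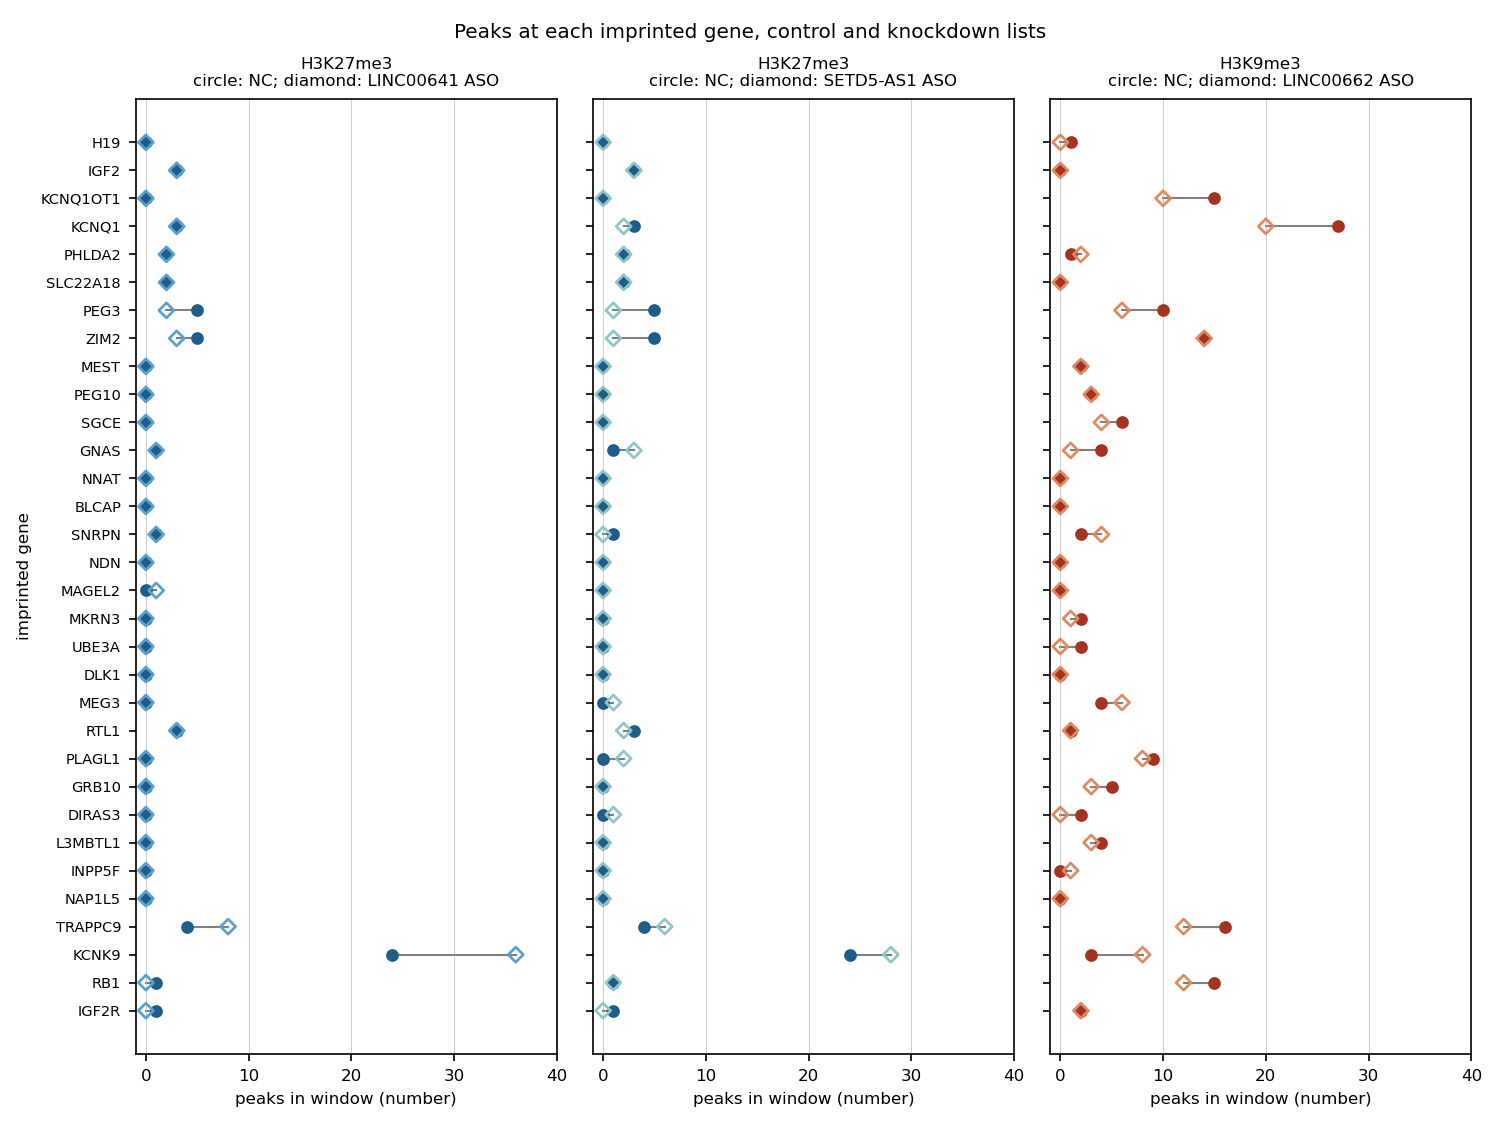
Number of peaks in the window of each imprinted gene in NC (filled circles) and in the knockdown list (open diamonds) for the 3 comparisons. KCNK9 has 24 peaks in NC and 36 in the LINC00641 ASO list, and KCNQ1 has 27 in the H3K9me3 NC list and 20 in the LINC00662 ASO list.

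**Figure D5:**
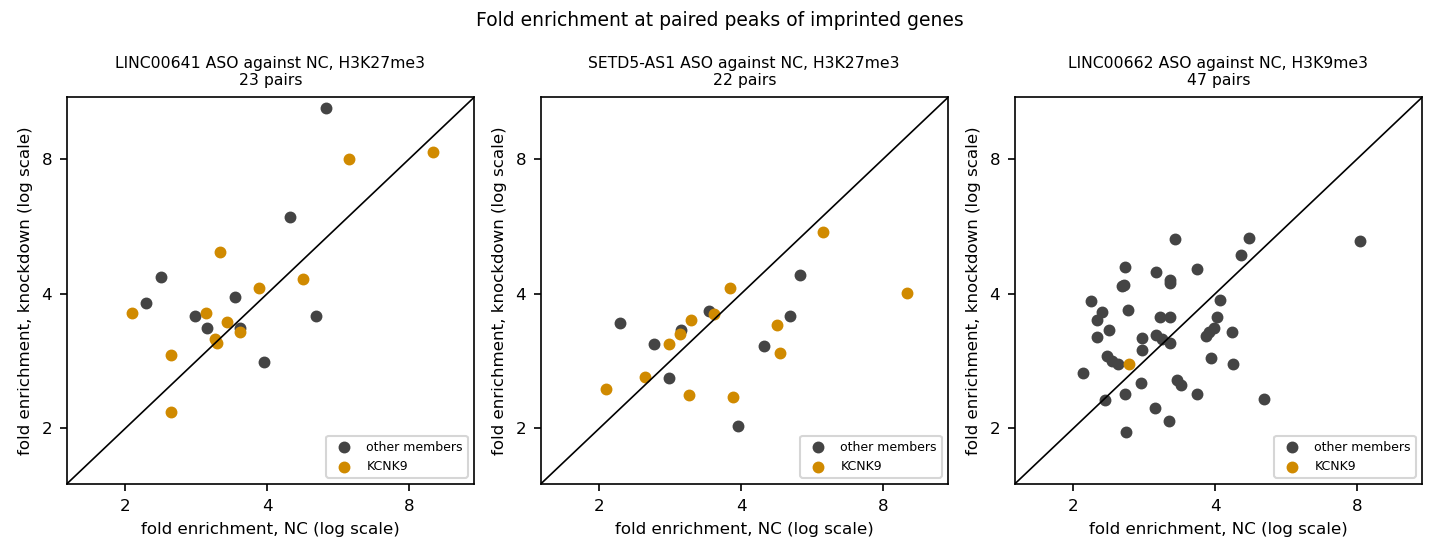
Fold enrichment over input of peaks paired 1 to 1 between NC (x axis) and the knockdown (y axis), both log scaled, with KCNK9 in orange and the line of equality. The 23 LINC00641 ASO pairs lie mostly above the line, and the 22 SETD5-AS1 ASO and 47 LINC00662 ASO pairs lie on both sides.

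The lists differ in depth. The number of fragments expected at a genomic position, recovered from the peak values, was 3.85, 3.78 and 4.43 in the H3K27me3 NC, LINC00641 ASO and SETD5-AS1 ASO lists and 4.29 and 3.5 in the H3K9me3 NC and LINC00662 ASO lists. A shallower list calls fewer weak peaks, and the part of depth in the differences between lists was not tested. Summit fragments at imprinted genes had a median between 21 and 26 in the 5 lists.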

How the data were processed

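ChIP-seq of H3K27me3 (3 groups) and H3K9me3 (2 groups) in HEK293T cells was deposited as 5 MACS2 peak lists. The authors used cutadapt 3.3 for adapter removal and Bowtie2 2.4.2 for alignment to hg19, discarded PCR duplicates, merged the 3 replicates of each group and called peaks with MACS2 2.2.7.1 on paired-end fragments against input. The deposited columns are an integer score, a fold enrichment (ratio) over input, and −log10 p and −log10 q values.

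Peaks were assigned to gene spans of GENCODE release 44 lifted to hg19 plus 10 kb. Overlap meant at least 1 bp; pairs overlapped each other and no other peak. Fragment numbers and local input were recovered from the fold enrichment and the −log10 p (MACS2 adds 1 to each), tested on simulated data. Values rest on Python 3.11.15 with pandas 2.3.3 and scipy 1.17.1. The Wilson and Poisson 95% intervals cover counting error only. With 1 list per group no test was possible. Alternatives were a stricter threshold (−log10 q 5 or above), no flank, merged peaks, overlap of at least 50%, leaving out peaks with a local input above 5 times the lowest, start sites within 2 kb, and windows left out. Genes with values are those with a start-site peak, the strongest or most covered 5 per mark, those gaining or losing all peaks, and those with both marks on the same bases; other members are given by counts or, where named, to complete their cluster. The members and lists were chosen with earlier results of these data known. Total read depth is not given in the sources used here.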

Additional observations from a re-analysis of the deposited data

How the results depend on the processing

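No paired analysis was possible because each group has 1 list of merged replicates, which also leaves no replicate to leave out. Of 110 alternatives for 23 results, 91 stayed within the tolerance (1.5 times for counts and ratios, the Wilson interval for shares, 0.1 for log2 medians). The others are these. Under the stricter threshold (−log10 q 5 or above), the start-site counts were 4, 5 and 3 for H3K27me3 (NC, LINC00641 ASO, SETD5-AS1 ASO) and 5 and 5 for H3K9me3. Members with a peak were then 6 for SETD5-AS1 ASO, 15 for H3K9me3 NC and 13 for LINC00662 ASO. The median log2 ratio was then -0.104 for LINC00641 ASO, the reverse of the main value, and -0.198 for SETD5-AS1 ASO, the retained share for LINC00662 ASO was 29.3%, and the bases under both marks were 942 bp. With an overlap of at least 50%, the retained share for LINC00662 ASO was 31.1%, and the new shares were 50.8% for LINC00641 ASO and 51.9% for LINC00662 ASO. Without KCNK9, chosen after seeing the data, the bases under both marks were 1030 bp, the LINC00641 ASO median log2 ratio 0.275 and its retained share 62.5%, and the SETD5-AS1 ASO retained share 54.2%. For these results the cause of the change was not tested. Peak lists without replicates limit every comparison here.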
